A study of Mchenga conophoros and Petrotilapia sp. 'chitimba' with 16 samples.

Results

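The total brain RNA of 2 cichlid species from Lake Malawi was compared in 8 input libraries, 4 of Petrotilapia sp. 'chitimba' (PC, fish 11, 12, 23 and 24) against 4 of Mchenga conophoros (MC, fish 9, 10, 21 and 22). Input is the part of the cleared brain lysate set aside before immunoprecipitation, so it draws on all cells of the brain. The members of the comparison were the loci that the deposited table matches to an annotated gene (class code "="). There were 30487 of them among 61384 loci, and 16911 had enough counts in the inputs to be tested.

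All fish were adult males and whole brains were taken 90 min after the test. PC fish 12 and 23 and MC fish 9 and 21 were mirror fish, exposed to their reflection for 15 min, and PC fish 11 and 24 and MC fish 10 and 22 were controls. Fish 9 to 12 formed batch a and fish 21 to 24 batch b, so each batch held 1 fish of each species and condition, and the conditions were pooled here. The study was set up around a difference between the species in aggression towards a mirror.

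Petrotilapia are rock-dwelling, territorial algae grazers, and Mchenga are sand-dwelling fish whose males build bowers. The radiation of Malawi cichlids is known for large differences in behaviour and colour between closely related species. In total brain RNA the level of a transcript reflects both how many cells of a type are present and how much RNA each holds, and fewer cells of a type and less RNA per cell cannot be told apart in such bulk samples.

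Levels are in CPM, counts relative to the library total as scaled by trimmed mean normalization, and values are listed in the order fish 11, 12, 23 and 24 for PC and fish 9, 10, 21 and 22 for MC. Fold changes are log2 values, PC minus MC, from an edgeR quasi-likelihood fit of 4 fish per species that also held batch and condition. The value after ± is a standard error (SE) worked back from the test, as the fold change over the square root of its F statistic. It is approximate where counts are near 0. Adjusted p-values come from the same fit, with Benjamini-Hochberg adjustment over all 28742 tested loci, and a locus was called at an adjusted p under 0.05.

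Of the 16911 annotated loci, 1817 (10.7%) were called. They were mostly higher in PC: 1522 (9%) were higher and 295 (1.74%) were lower. With the annotated loci fitted alone, 1323 were higher and 710 lower, so these shares depend on which loci enter the fit. Over all tested loci, annotated or not, 2533 (8.81%) were called. The difference exceeded 1 on the log2 scale for 1349 of the higher and 218 of the lower loci. The 4 PC values lay wholly above the 4 MC values at 2763 annotated loci (16.3%) and wholly below them at 901 (5.33%). Of the called loci, 867 of the higher and 149 of the lower carried a gene symbol, and the other 801 had only an identifier. The median fold change over annotated loci was 0.32, against 0.02 over all tested loci.

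The excess of higher calls was steepest among abundant and short loci. Of the 546 annotated loci with a mean above 7 log2 CPM, 324 (59.3%) were higher in PC and 21 were lower. Loci were ranked by genomic span, the distance from the first to the last base with introns included. In the tenth with the shortest spans, up to 2889 bases, the median fold change was 1.31 and 416 of 1692 loci were called higher against 9 lower. In the tenth with the longest spans, from 49636 bases upwards, the median was -0.12, with 17 called higher and 58 lower.

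**Figure D1:**
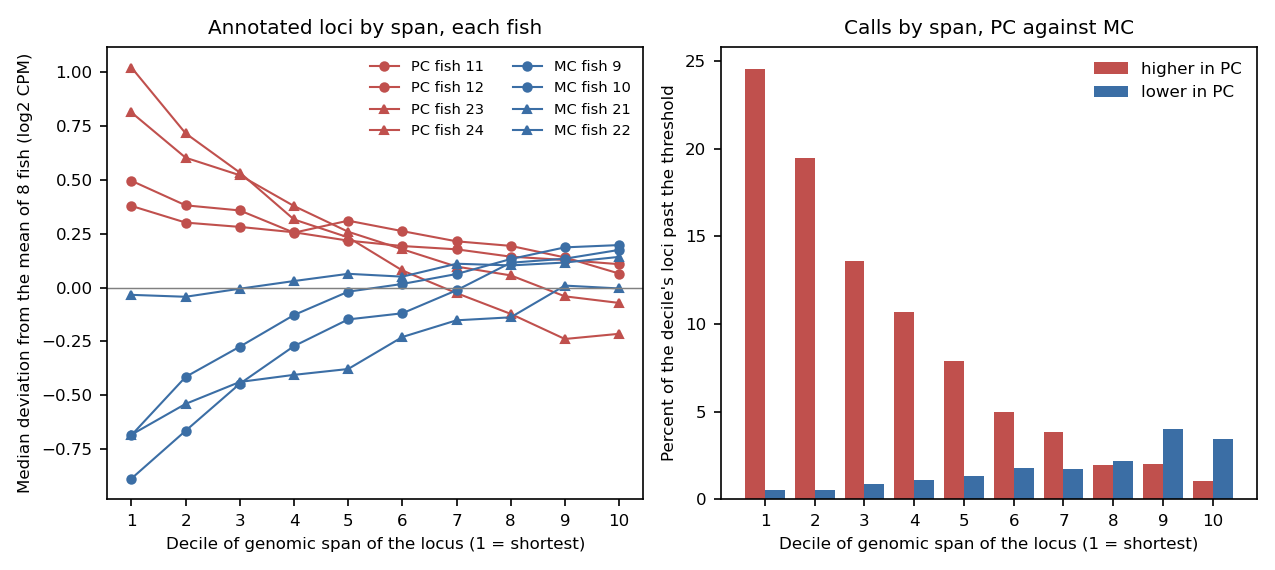
Left, the median deviation of each fish from the mean of the 8 inputs, in log2 CPM, for annotated loci in 10 classes of genomic span; right, the percent of each class called higher or lower in PC. The 4 PC fish lie above 0 and the 4 MC fish below 0 in the class of shortest loci, and the lines run together towards the longest, where the medians lie between -0.21 and 0.20.

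The libraries of the species also differed in depth and composition. Totals were 10940859 to 23594320 counts in PC and 10073251 to 10904974 in MC. Log2 CPM of annotated loci correlated at 0.85 to 0.88 between PC fish, 0.79 to 0.85 between MC fish and 0.70 to 0.85 between species (Pearson's r across loci, which are not independent replicates). Loci lying within introns took 0.625, 0.767, 0.566 and 0.609% of the counts in PC, against 2.11, 1.60, 1.86 and 1.22% in MC. The ranges did not overlap (exact permutation test of 4 against 4, two-sided, p = 0.0286, the smallest that the design allows, and 0.0408 after Benjamini-Hochberg adjustment over 10 library measures). Nuclear annotated loci under 5000 bases took 50.6 to 57.3% of the nuclear annotated counts in PC and 42.3 to 49.0% in MC. A count was found at 17942 to 18541 annotated loci in PC and at 14924 to 17149 in MC. Total counts and both of these measures had the same p and adjusted p as the intron share. Thinned to one depth, the libraries still differed in annotated loci detected, which averaged 18028.5 in PC and 16348 in MC.

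**Figure D2:**
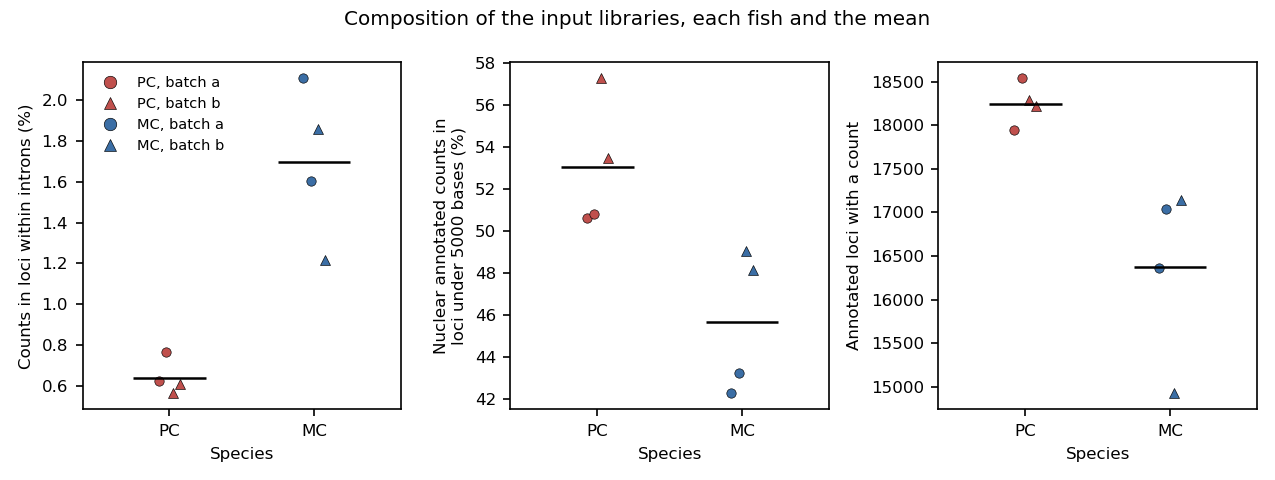
The share of counts in loci within introns, the share of nuclear annotated counts in loci under 5000 bases, and the number of annotated loci with a count, for each fish (points) and as the mean of 4 fish (line). The species do not overlap in any of the 3 measures, and MC fish 22 lies nearest to PC in the intron share, at 1.22%.

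MC fish 22 also stood nearest to PC among the shortest loci, with a median deviation of -0.03 log2 CPM, against -0.89, -0.69 and -0.68 in MC fish 9, 10 and 21. The 4 PC fish had 0.38, 0.50, 1.02 and 0.81 in that class. For genes with an intron locus of their own, the intron loci were lower in PC at the median whether the gene was called higher, lower or not at all. They were least so where the gene was called higher. The 54 such genes called higher in PC had a median fold change of 1.54, and their intron loci had one of -1.40. In the 47 called lower the medians were -1.14 and -1.79, and in the 1658 not called 0.03 and -1.62. The part of this composition in the fold changes of single genes was not tested. The values of a second fit, in which each library was scaled by a smooth curve of its deviation on log2 span, are given beside the main genes and wherever that fit ended a call.

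That span-scaled fit, chosen after the data had been seen, called 1336 annotated loci (7.90%), of which 789 (4.67%) were higher and 547 (3.23%) were lower in PC. Both fits shared 728 higher and 230 lower calls, while 794 higher and 65 lower calls were made only with the usual scaling. A further 61 higher and 317 lower calls were made only when scaled by span. Higher calls thus made up 83.8% of the calls with the usual scaling and 59.1% with the span scaling, and the median over annotated loci moved to 0.09.

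The highest fold changes among named genes that were expressed at more than 1 log2 CPM belonged to genes on short loci, with a median span of 3930 bases over the first 15. These genes, the lowest ones and the abundant ones below were chosen among called loci without overlap between the species. Their lack of overlap was thus set by that choice. bloc1s2, a subunit of a complex that acts on lysosome-related organelles, had 20.3, 18.9, 70.03 and 51.9 CPM in PC, against 0.479, 0, 0 and 1.54 CPM in MC. Its log2 fold change was 6.32 ± 0.84, adjusted p = 0.00269, and 5.28 span-scaled. psmd8, a regulatory subunit of the proteasome, had 14.1, 9.41, 26.7 and 21.4 CPM in PC, against 0, 0.949, 0 and 4.07 CPM in MC (4.89 ± 1.06, adjusted p = 0.0206; 4.13 span-scaled). The MC counts of both genes were at or near 0 in several fish.

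serpinf1, which encodes a secreted protein with neurotrophic activity in mammals, had 14.5, 7.28, 58.98 and 36.1 CPM in PC, against 0, 0.791, 4.19 and 1.72 CPM in MC (4.31 ± 0.68, adjusted p = 0.00483). yipf3, a Golgi membrane protein, had 7.36, 30.8, 25.2 and 22.5 CPM in PC, against 0.798, 1.50, 1.91 and 0.634 CPM in MC (4.06 ± 0.54, adjusted p = 0.00272). gstk1, a glutathione transferase of mitochondria and peroxisomes, had 42.6, 42.0, 73.3 and 58.3 CPM in PC, against 2.39, 7.04, 3.37 and 6.52 CPM in MC (3.56 ± 0.36, adjusted p = 0.0017). Span-scaled, the 3 genes differed by 3.85, 3.25 and 2.66.

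The locus lg1h15orf48 had 49.4, 79.2, 124 and 124 CPM in PC, against 0, 0.870, 4.10 and 5.34 CPM in MC (5.74 ± 0.73, adjusted p = 0.0024; 4.41 span-scaled). It starts 247 bases from spata5l1, which had no count in any MC input, so the pair of neighbours was higher together. haus2, a subunit of the augmin complex of the mitotic spindle, had 19.9, 17.1, 31.9 and 24.3 CPM in PC, against 0, 1.82, 2.28 and 8.24 CPM in MC (3.68 ± 0.82, adjusted p = 0.0227; 2.92 span-scaled). The MC values of haus2 spread from 0 to 8.24 CPM.

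Of the 15 genes with the highest fold changes, 3.23 to 6.32, 11 remained called after scaling by span and 10 remained called without any single fish. rbm34, jpt2 and sumo2 had adjusted p of 0.0516, 0.0722 and 0.0573 span-scaled. gnrh1, the fourth gene lost there, is described with the neuropeptides. Without MC fish 9 the adjusted p of rbm34 was 0.0601, that of lg11h8orf37 0.0808, that of jpt2 0.103 and that of spr 0.0765, without MC fish 10 that of rbm34 was 0.0538, and without MC fish 21 that of sumo2 was 0.0632.

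**Figure D3:**
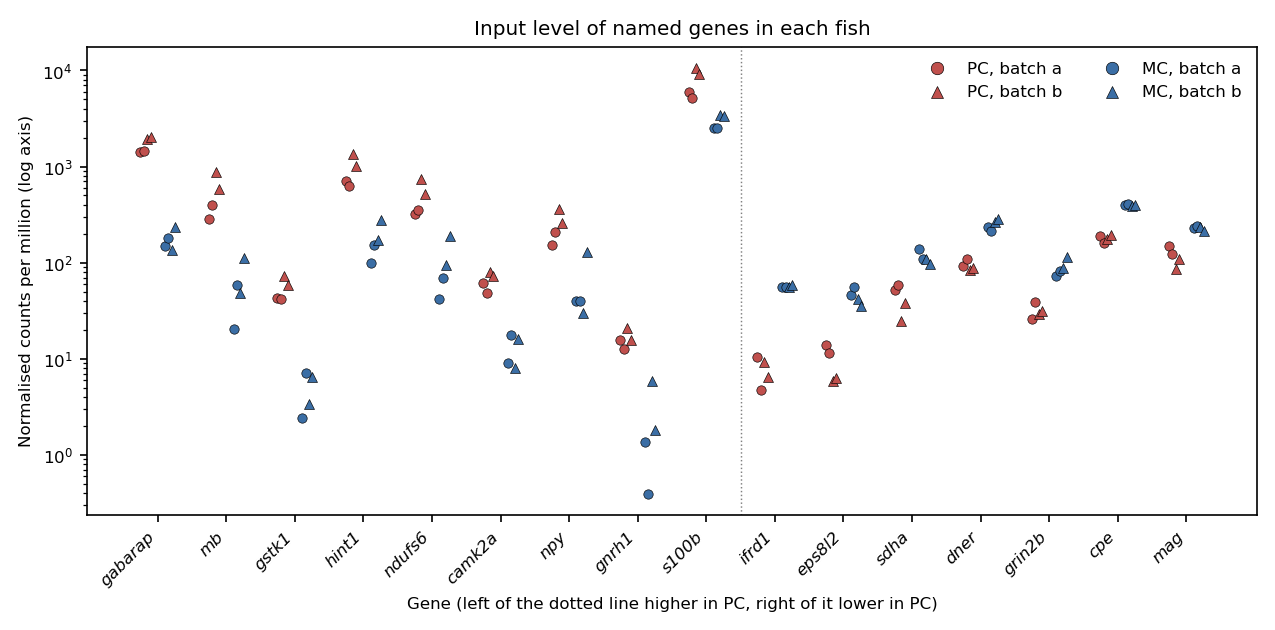
CPM on a log axis in each PC and MC input for 9 named genes called higher and 7 called lower in PC; colour gives the species and marker shape the batch. For every gene shown the 4 PC points and the 4 MC points do not overlap, which was a condition for naming many of them. They run from gabarap, with 1416 to 2048 CPM in PC and 137 to 236 CPM in MC, to ifrd1. The latter had 4.70 to 10.3 CPM in PC and 55.5 to 58.1 CPM in MC.

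The lowest fold change belonged to ifrd1, a transcriptional co-regulator, with 10.3, 4.70, 9.21 and 6.43 CPM in PC, against 55.5, 56.3, 55.8 and 58.1 CPM in MC (-2.89 ± 0.30, adjusted p = 0.0017; -3.24 span-scaled). The MC fish agreed closely and every PC fish was far below them. eps8l2, an actin regulator, had 13.8, 11.5, 5.80 and 6.34 CPM in PC, against 46.4, 55.7, 41.5 and 35.3 CPM in MC (-2.34 ± 0.25, adjusted p = 0.00189), and stk40, a kinase-like protein, had 1.37, 2.76, 3.57 and 1.52 CPM in PC, against 8.38, 15.0, 16.9 and 13.0 CPM in MC (-2.61 ± 0.48, adjusted p = 0.00963). Span-scaled, both stayed near these values, at -2.21 and -2.58.

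anos1 encodes anosmin, a matrix protein known in humans for its role in the migration of gonadotropin-releasing hormone neurons. It had 10.1, 18.3, 8.43 and 8.12 CPM in PC, against 44.1, 41.7, 46.6 and 26.1 CPM in MC (-1.86 ± 0.26, adjusted p = 0.00328; -1.70 span-scaled). otos, known from the mammalian inner ear, had 8.20, 5.43, 6.42 and 3.21 CPM in PC, against 16.4, 16.8, 75.6 and 30.0 CPM in MC (-2.34 ± 0.53, adjusted p = 0.0245; -3.31 span-scaled). MC fish 21 had the highest otos value.

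npc1, which carries cholesterol out of lysosomes, had 4.94, 4.66, 4.91 and 1.34 CPM in PC, against 8.78, 15.9, 36.8 and 16.8 CPM in MC (-2.28 ± 0.56, adjusted p = 0.0346), and hcn2, a pacemaker channel, had 1.89, 3.84, 1.79 and 2.59 CPM in PC, against 9.57, 11.9, 12.8 and 7.88 CPM in MC (-2.07 ± 0.47, adjusted p = 0.0258). The npc1 call ended without MC fish 10 or MC fish 21 (adjusted p = 0.104 and 0.0913). That of hcn2 ended without PC fish 11 or 23 or MC fish 9, 10 or 21, with adjusted p between 0.0581 and 0.144. All 15 genes with the lowest fold changes, -2.89 to -1.80, were also called after scaling by span, and 5 of them remained called without any single fish.

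Abundant genes, those above 6 log2 CPM, gave narrower errors. gabarap, a ubiquitin-like protein of autophagosomes, had 1416, 1460.0, 1941 and 2048 CPM in PC, against 150.1, 181, 137 and 236 CPM in MC. Its log2 fold change was 3.29 ± 0.20, adjusted p = 0.000176, and 2.35 span-scaled. mb, the oxygen-binding myoglobin, had 286, 396, 870.4 and 581 CPM in PC, against 20.6, 58.0, 48.6 and 113 CPM in MC (3.27 ± 0.39, adjusted p = 0.00209; 2.76 span-scaled). The mb locus overlaps another annotated locus, and since it is not stated whether strand was used in counting, its value is uncertain.

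hint1, a purine phosphoramidase, had 711, 633, 1335 and 1004 CPM in PC, against 98.8, 152, 172 and 275 CPM in MC (2.44 ± 0.22, adjusted p = 0.0017; 1.28 span-scaled). snrpg, a core protein of the spliceosome, had 142, 154, 187 and 155 CPM in PC, against 28.9, 24.7, 30.0 and 41.6 CPM in MC (2.36 ± 0.21, adjusted p = 0.0017; 1.51 span-scaled). pomp, which helps proteasomes to assemble, had 455, 479, 895 and 650.4 CPM in PC, against 84.6, 123, 116 and 185 CPM in MC (2.29 ± 0.23, adjusted p = 0.0017; 0.98 span-scaled). The 10 abundant genes with the highest fold changes, 2.23 to 3.29, all remained called without any single fish and after scaling by span, where they ranged from 0.98 to 2.76. Their median span was 3152.5 bases.

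At the other end, itm2c, an integral membrane protein of neurons, had 21.5, 70.6, 65.2 and 126 CPM in PC, against 226, 212, 217 and 245 CPM in MC (-1.76 ± 0.40, adjusted p = 0.0265; -2.36 span-scaled). It was called in every fit that left out a fish but the one without MC fish 9 (adjusted p = 0.0567). dner, a neuronal Notch ligand, had 91.9, 109.6, 83.5 and 88.3 CPM in PC, against 233, 213, 265 and 283 CPM in MC (-1.41 ± 0.20, adjusted p = 0.00325; -1.17 span-scaled). sv2a, a synaptic vesicle protein, had 109, 79.5, 52.3 and 68.0 CPM in PC, against 199.9, 214, 187 and 136 CPM in MC (-1.29 ± 0.22, adjusted p = 0.00649; -1.10 span-scaled). The 10 abundant genes with the lowest fold changes, -1.76 to -1.04, had a median span of 14430.5 bases and were all called after scaling by span, and 5 of them remained called without any single fish.

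Nuclear genes of the respiratory chain, the machine that passes electrons to oxygen and makes ATP in mitochondria, were higher in PC nearly throughout among those tested. Of 78 symbols on the list 38 matched an annotated locus. By name the tested genes belonged to complexes I, II and V, and none was named for complex III, complex IV or cytochrome c. The 37 tested genes had a median span of 4999 bases. In the tenth of annotated loci with spans of 4436 to 6112 bases the median fold change was 0.71, and 13.6% were called higher. Of the 37 tested, 34 were called higher and 1 lower, against 9% and 1.74% of all annotated loci. Their median fold change was 1.72, against 0.32 over all annotated loci. Scaled by span, 25 were higher and 1 was lower, against 4.67% and 3.23% of all annotated loci, and the median was 0.95, against 0.09. The summed level of the 37 genes was 11365 to 20546 CPM in PC and 2963 to 7746 CPM in MC.

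In complex I, which takes electrons from NADH, 26 of 28 genes assigned to it by name alone (nduf) were called higher. ndufs6 had the highest value, with 322, 352, 748 and 518 CPM in PC, against 41.7, 69.3, 95.02 and 189 CPM in MC (2.43 ± 0.28, adjusted p = 0.00209; 1.47 span-scaled). ndufs4, on the longest locus of the set with 18473 bases, had 193, 186, 398 and 295 CPM in PC, against 50.5, 72.4, 86.3 and 144 CPM in MC (1.64 ± 0.23, adjusted p = 0.00322; 1.66 span-scaled). Among those not called was ndufs1 (-0.18 ± 0.27, adjusted p = 0.722). Span-scaled, 18 of the 28 were called higher, and ndufa1, on a locus of 1208 bases, had 0.29 there against 1.73 with the usual scaling.

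Complex V, the ATP synthase, had 6 of 6 subunits higher, and 5 of them after scaling by span. atp5f1d had 482, 500.0, 777 and 610.4 CPM in PC, against 80.8, 124, 127 and 236 CPM in MC (2.14 ± 0.24, adjusted p = 0.00209; 1.88 span-scaled). atp5po had 757, 712, 1669 and 1109.8 CPM in PC, against 153, 206, 270.3 and 403 CPM in MC (2.05 ± 0.22, adjusted p = 0.00181; 1.26 span-scaled). The exception was atp5f1e, on a locus of 1565 bases, which was higher by 1.25 with the usual scaling and stood at -0.05 span-scaled.

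Complex II, succinate dehydrogenase, was split. sdhc and sdhd, its membrane anchors, were higher, by 2.03 ± 0.28, adjusted p = 0.00302 and 1.27 ± 0.22, adjusted p = 0.0079. sdha, its catalytic flavoprotein, had 51.4, 58.8, 24.9 and 37.7 CPM in PC, against 137, 108, 109 and 97.3 CPM in MC and was lower (-1.43 ± 0.24, adjusted p = 0.00638; -1.60 span-scaled). The sdha values did not overlap between the species, but sdha was also among the abundant genes chosen for lack of overlap. The directions of all 3 genes held after scaling by span.

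**Figure D4:**
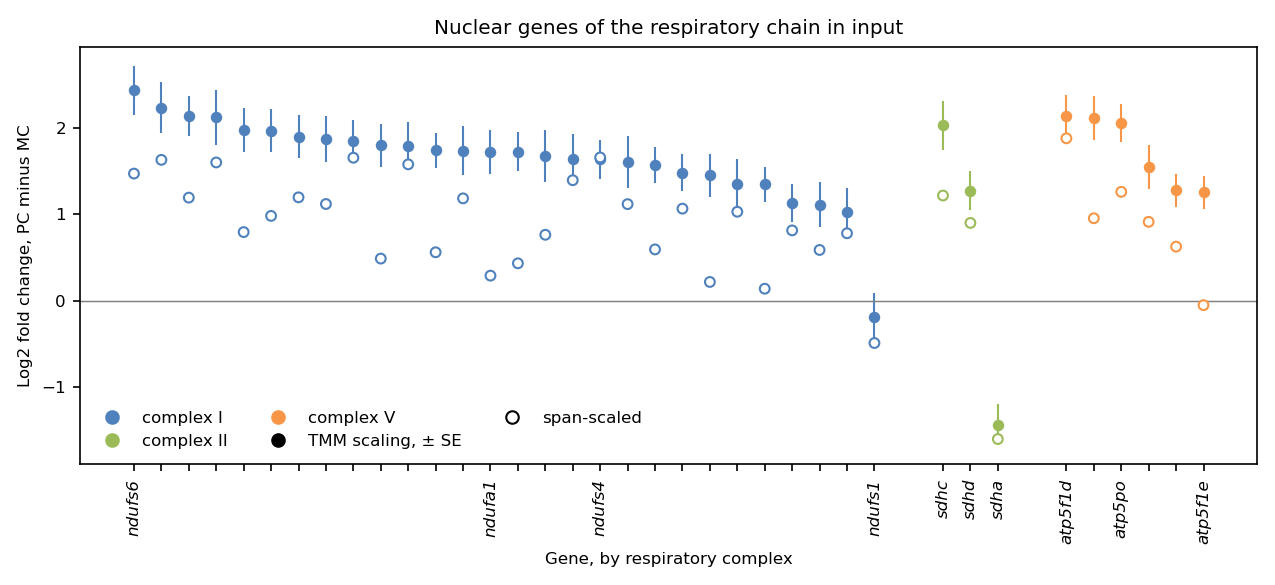
Log2 fold change, PC minus MC, of 37 nuclear respiratory chain genes by complex, with the genes described in the text labelled; filled points are values with the usual scaling and their SE, open points the span-scaled values. Nearly all points lie above 0, the open points lie mostly below the filled ones, and sdha stands apart at -1.43 and -1.60.

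The mitochondrial genome itself did not follow as a whole. Of 7 mitochondrially encoded genes tested, 2 were called higher, against 9% of all annotated loci. The median of the 7 was 0.07, with a median of -0.0039 under relative log expression scaling and -0.10 under upper-quartile scaling. CYTB, the cytochrome b gene, had 10657, 9875, 11837 and 11053 CPM in PC, against 3551, 2712, 4572 and 4403 CPM in MC (1.54 ± 0.16, adjusted p = 0.0017). ND2, a complex I subunit, had 6493, 6227, 8389 and 7248 CPM in PC, against 2602, 3013, 4348 and 3772 CPM in MC (1.06 ± 0.15, adjusted p = 0.00322). The other 5 overlapped between the species, among them COX1 with 24711 to 30683 CPM in PC and 21988 to 32979 CPM in MC. The mitochondrial share of all counts was 20.7 to 27.8% in PC and 21.03 to 30.6% in MC (exact permutation test, two-sided, p = 0.257).

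Cytosolic ribosomal protein genes were called higher in 47 of 55 cases and lower in none, against 9% and 1.74% of all annotated loci. Their median was 0.83 and their median span 3436 bases. In the tenth of annotated loci with spans of 2889 to 4433 bases the median was 0.91, and 19.5% were called higher. Of annotated loci above 7 log2 CPM, 59.3% were called higher. The summed level of the ribosomal protein genes was 52564 to 96134 CPM in PC and 27123 to 50574 CPM in MC. Here the span scaling ended most calls: 4 were higher and 7 were lower, against 4.67% and 3.23% of all annotated loci. The median was 0.03, against 0.09 over all annotated loci. Among the 4 were rps6 (1.32 with the usual scaling, 0.59 span-scaled) and rps18 (1.38 and 0.57). rps6 encodes the protein whose phosphorylated form the antibody of the study binds, and it had 984, 1132, 1835 and 1366 CPM in PC, against 337, 456, 568 and 815 CPM in MC. Several of these loci, rps18 among them, overlap another annotated locus, so their counts are uncertain.

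Among 23 neuropeptide and precursor-processing genes, 4 were called higher and 2 lower, against 9% and 1.74% of all annotated loci, with a median of 1.07. Span-scaled the balance turned round, with 1 higher (chga) and 3 lower (cpe, pcsk1 and the granin scg3, at -0.88 with adjusted p = 0.0252), while the median was 0.42. Over all annotated loci 4.67% were higher and 3.23% lower in that fit. With the usual scaling the higher ones were peptides and a granin: gnrh1, npy, cck and chga. gnrh1, the gonadotropin-releasing hormone of the reproductive axis, had 15.8, 12.7, 20.8 and 15.8 CPM in PC, against 1.36, 0.395, 5.83 and 1.81 CPM in MC (3.26 ± 0.58, adjusted p = 0.00861). npy, a feeding and stress peptide, had 151, 206, 364 and 261 CPM in PC, against 39.9, 40.2, 29.8 and 129 CPM in MC (2.13 ± 0.40, adjusted p = 0.0111). cck, cholecystokinin, had 77.8, 89.5, 85.0 and 135 CPM in PC, against 35.0, 41.6, 38.7 and 45.2 CPM in MC (1.26 ± 0.21, adjusted p = 0.00679).

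None of these 3 overlapped between the species, but they lie on loci of 701, 1958 and 4867 bases, and span-scaled their values were 1.56, 0.96 and 0.59 with adjusted p of 0.143, 0.0827 and 0.105. chga, a granin of secretory granules, had 402, 451, 609 and 637 CPM in PC, against 212, 247, 202 and 340.1 CPM in MC (1.07 ± 0.20, adjusted p = 0.0107) and was still called span-scaled (0.65, adjusted p = 0.0415).

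The 2 members lower under both scalings were enzymes that trim prohormones. cpe, carboxypeptidase E, had 189, 160.4, 177 and 193 CPM in PC, against 397, 403, 392 and 395 CPM in MC (-1.15 ± 0.17, adjusted p = 0.00363; -1.14 span-scaled). pcsk1, a prohormone convertase, had 38.3, 23.2, 20.7 and 30.8 CPM in PC, against 67.3, 62.3, 39.0 and 66.8 CPM in MC (-1.08 ± 0.23, adjusted p = 0.0177; -1.16 span-scaled). The cpe values were tight in both species and far apart, and cpe was also among the abundant genes chosen for lack of overlap. The pcsk1 call ended without PC fish 12, MC fish 9 or MC fish 22 (adjusted p = 0.0699, 0.0932 and 0.068).

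Synaptic and channel genes lie on long loci, with median spans of 76441.5 and 43898.5 bases, and had medians below 0. Of 30 synaptic plasticity and scaffold genes 1 was called higher and 4 lower, against 9% and 1.74% of all annotated loci, with a median of -0.09. The same counts were found span-scaled, against 4.67% and 3.23% of all annotated loci. There lrrtm1 (-1.03, on a locus that overlaps another) was in place of nlgn3, and the median was 0.08. The one higher was camk2a, the alpha subunit of the calcium-calmodulin kinase of the synapse, with 61.9, 48.6, 79.1 and 71.8 CPM in PC, against 9.09, 17.6, 8.02 and 16.1 CPM in MC (2.42 ± 0.28, adjusted p = 0.00209; 2.58 span-scaled). The lowest PC value was 48.6 CPM and the highest MC value 17.6 CPM.

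grin2b, an NMDA receptor subunit, had 25.7, 38.7, 29.2 and 31.2 CPM in PC, against 72.9, 82.3, 88.6 and 114 CPM in MC (-1.50 ± 0.24, adjusted p = 0.00493; -1.19 span-scaled), with no overlap. The other lower members were dlgap1, a postsynaptic scaffold (-1.41 ± 0.32, adjusted p = 0.0249), unc13a, a vesicle priming protein (-1.27 ± 0.30, adjusted p = 0.0281), and nlgn3, a synaptic adhesion molecule (-1.02 ± 0.23, adjusted p = 0.0264). Their calls were less firm. nlgn3 lost its call without any 1 of the 8 fish (adjusted p from 0.0627 to 0.131) and after scaling by span (0.0749). dlgap1 lost it without PC fish 12, PC fish 23 or MC fish 9 (0.0514, 0.0646 and 0.0712), and unc13a without PC fish 12, PC fish 24, MC fish 10 or MC fish 21 (0.056 to 0.0707).

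Of 30 voltage-gated ion channels 2 (6.67%) were called with the usual scaling, both lower. Over all annotated loci 10.7% were called and 1.74% were called lower. The 2 channels were hcn2, given above, and cacna1c, a calcium channel. The latter had 46.7, 45.7, 30.9 and 38.9 CPM in PC, against 115, 97.0, 70.1 and 66.5 CPM in MC (-1.08 ± 0.20, adjusted p = 0.0101, and -0.71 span-scaled). The cacna1c locus overlaps another annotated locus and its value is uncertain. Span-scaled 4 channels were lower, among them these 2 and kcnc1 (-0.80), and 2 were higher, kcnk9 and kcnq3 (1.45 and 1.30). Over all annotated loci 3.23% were lower and 4.67% higher span-scaled. Of 57 neural adhesion and guidance genes, 3 (5.26%, against 1.74% of all annotated loci called lower) were lower and none higher with the usual scaling. Their summed level was 857 to 994 CPM in PC and 1199 to 1311 CPM in MC. The median was -0.43, and -0.20 span-scaled. These 3 were sema4d (-1.76 ± 0.48, adjusted p = 0.05), lsamp (-1.06 ± 0.23, adjusted p = 0.0201) and tenm1 (-0.81 ± 0.21, adjusted p = 0.0468). Span-scaled they stood at -1.61, -0.69 and -0.46 and none was called (adjusted p = 0.0572, 0.0673 and 0.194), while epha3 was called higher (1.18) and sema3e lower (-1.22). sema4d and tenm1 lost their calls without any 1 fish (0.0772 to 0.171 and 0.0704 to 0.257), and lsamp without PC fish 23, MC fish 9 or MC fish 22 (0.0596, 0.0639 and 0.0556).

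Markers of cell types showed that both species' inputs held the neurons and glia of a brain. The 8 pan-neuronal genes tested summed to 3418 to 4342 CPM in PC and 4323 to 4788 CPM in MC. Of the 8, 1 was called higher, uchl1 (0.94 ± 0.23, adjusted p = 0.0374), and 1 lower, sv2a, against 9% and 1.74% of all annotated loci. Span-scaled none was higher and 2 were lower, sv2a and nefm, a neurofilament protein (-0.88, adjusted p = 0.0245), and uchl1 was at 0.41 (adjusted p = 0.212). In that fit 3.23% of all annotated loci were called lower. With the usual scaling the uchl1 call ended without PC fish 12, PC fish 23, MC fish 10 or MC fish 21 (adjusted p from 0.0514 to 0.0938). snap25, a synaptic fusion protein, had 2685, 2445, 1898 and 2288 CPM in PC, against 2763, 2833, 2405 and 2673 CPM in MC and its groups overlapped (-0.21 ± 0.14, adjusted p = 0.405).

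Radial glia, which serve as stem cells and as the main astroglia of the fish brain, had 4 of 7 markers higher and none lower with the usual scaling. Over all annotated loci 9% were called higher and 1.74% lower. Span-scaled 1 marker was higher (s100b) and 1 lower (sox2, a stem cell factor, -1.14), against 4.67% and 3.23% of all annotated loci. s100b, a glial calcium-binding protein, had 5924, 5176, 10541 and 9182 CPM in PC, against 2504, 2542, 3436 and 3398 CPM in MC (1.33 ± 0.15, adjusted p = 0.00209; 0.74 span-scaled). fabp7, a fatty acid carrier of radial glia, had 1109, 1321, 2792 and 2152 CPM in PC, against 277, 495, 647 and 809.7 CPM in MC (1.73 ± 0.22, adjusted p = 0.00244), but 0.39 span-scaled (adjusted p = 0.127). The other calls were id1 (1.29 ± 0.18, adjusted p = 0.00302; -0.12 span-scaled) and vim (0.94 ± 0.25, adjusted p = 0.044; 0.31 span-scaled, adjusted p = 0.388). vim overlapped between the species and kept its call only without PC fish 24 among the 8 fits that left out a fish; in the others its adjusted p was 0.0616 to 0.252. The list's summed level was 7492 to 14226 CPM in PC and 3865 to 5461 CPM in MC, most of it s100b, and its median was 0.94 with the usual scaling and -0.12 span-scaled.

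Of 11 oligodendrocyte and myelin genes 1 was called with the usual scaling (9.09%, against 1.74% of all annotated loci called lower), and it was lower. It was mag, the myelin-associated glycoprotein, with 148, 122, 86.1 and 110.2 CPM in PC, against 231, 238, 237 and 216 CPM in MC (-1.01 ± 0.19, adjusted p = 0.0116; -0.99 span-scaled). Every PC fish was below every MC fish. Span-scaled 2 of the 11 were called lower, against 3.23% of all annotated loci: mag and olig2, a factor of the oligodendrocyte lineage (-1.13). The list's median was -0.09 with the usual scaling, against 0.32 over all annotated loci, and -0.95 span-scaled, against 0.09. Of 10 genes on the microglia and macrophage list 1 (10%, near the 9% of all annotated loci called higher) was called, aif1l, which was higher. It had 118, 114, 90.3 and 119 CPM in PC, against 57.9, 37.8, 28.5 and 48.2 CPM in MC (1.36 ± 0.25, adjusted p = 0.00947; 0.87 span-scaled). The list's median was -0.14 and cd74 was called lower span-scaled (-1.06), so the aif1l call is that of 1 gene and no reading of these cells. Neuronal transmitter lists gave single lower calls. Over all annotated loci 10.7% were called and 1.74% were called lower. Among 12 GABA and glycine genes (8.33% called) the call was glra1, a glycine receptor subunit (-1.53 ± 0.33, adjusted p = 0.0201). These 12 summed to 404 to 493 CPM in PC and 513 to 573 CPM in MC. Among 14 monoamine and related genes (7.14% called) the call was ache, acetylcholinesterase (-1.19 ± 0.29, adjusted p = 0.0313). These 14 overlapped in summed level, with 67.5 to 97.4 CPM in PC and 83.9 to 132 CPM in MC. glra1 lost its call without PC fish 12 or MC fish 10 (0.0593 and 0.108), and ache without PC fish 23 or 24 or MC fish 10, 21 or 22 (0.0566 to 0.0884).

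Markers of tissues next to the brain overlapped between the species in 3 lists and not in that of muscle. Pituitary markers summed to 20.3 to 288 CPM in PC and 9.80 to 265 CPM in MC, photoreceptor and pineal genes to 266 to 320 CPM in PC and 78.2 to 384 CPM in MC, and 3 red blood cell markers to 34.8 to 52.1 CPM in PC and 23.9 to 35.9 CPM in MC. Skeletal muscle genes summed to 386 to 1021 CPM in PC and 105 to 169 CPM in MC, mostly through mb, which was the 1 of 7 called. The other 6 muscle genes overlapped between the species.

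**Figure D5:**
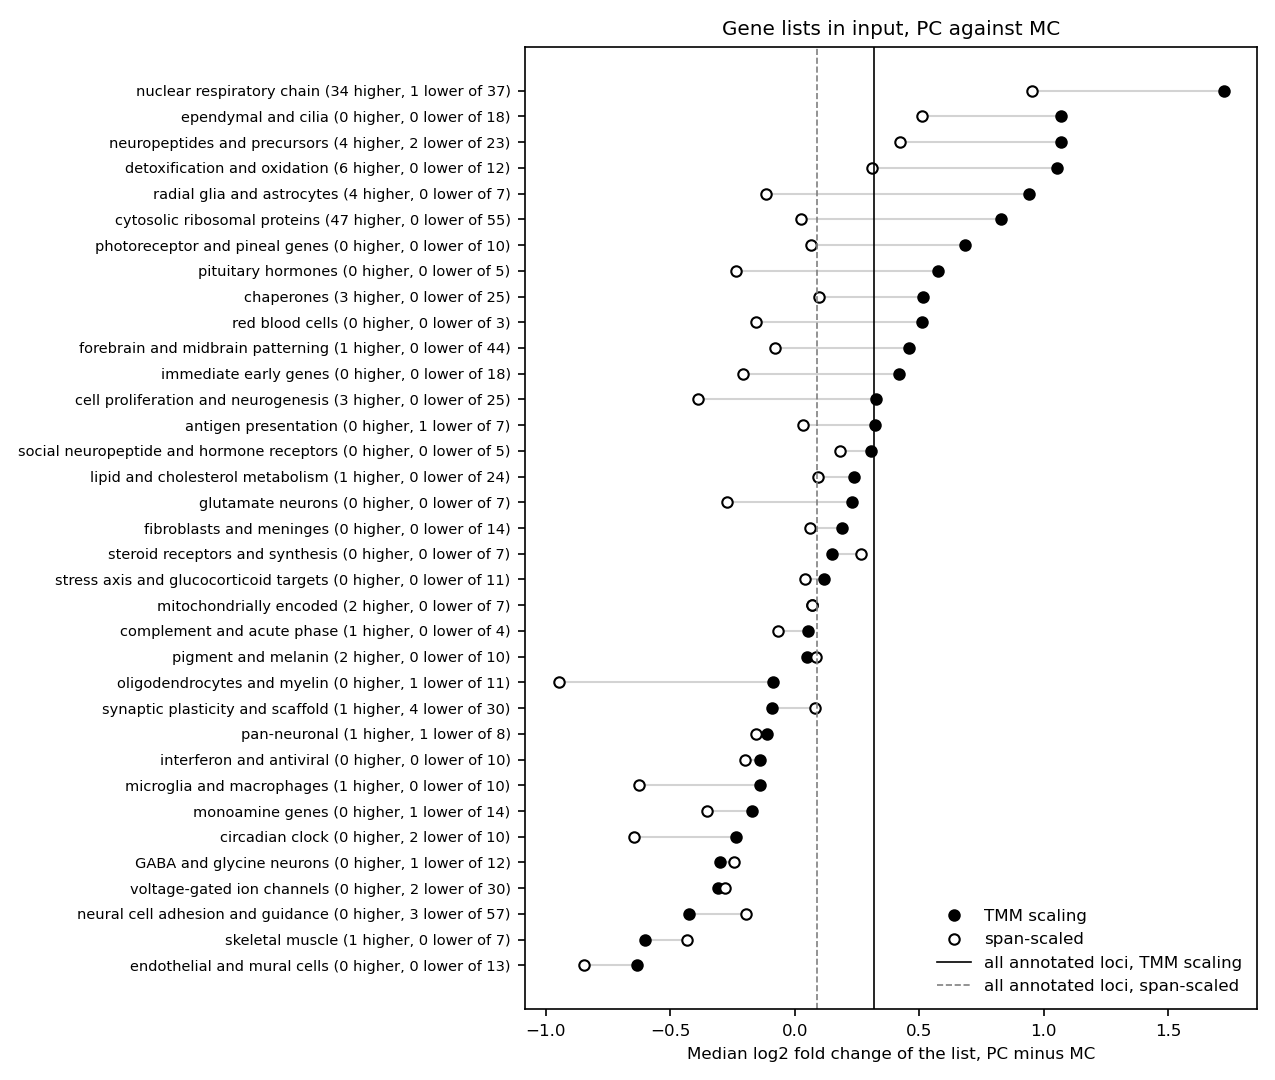
Median log2 fold change, PC minus MC, of 35 gene lists with the usual scaling (filled) and span-scaled (open), with the counts of members called; vertical lines mark the medians over all annotated loci. The nuclear respiratory chain lies farthest to the right under both scalings, at 1.72 and 0.95, and several lists right of the line with the usual scaling move to the other side of 0 span-scaled.

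Enzymes of detoxification and oxidation had 6 of 12 members higher and none lower, against 9% and 1.74% of all annotated loci. sod1, the cytosolic superoxide dismutase, had 499, 473, 849 and 751 CPM in PC, against 111, 114, 164 and 273 CPM in MC (2.01 ± 0.20, adjusted p = 0.0017; 1.21 span-scaled). prdx5 and prdx2, peroxiredoxins, were higher by 1.82 ± 0.22, adjusted p = 0.00212 and 1.64 ± 0.20, adjusted p = 0.00212, and these 3 were the ones called span-scaled. In that fit 4.67% of all annotated loci were called higher. gpx3, gpx4 and mgst3, which act with glutathione, had 1.02, 1.04 and 1.06 with the usual scaling and 0.22, 0.40 and -0.18 span-scaled. mgst3 lost its call without PC fish 12, MC fish 9 or MC fish 10 (0.0514, 0.0544 and 0.0686), and gpx4 without PC fish 12, 23 or 24 or MC fish 9, 10 or 21 (0.0548 to 0.0991).

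In the pigment list 2 of 10 members were higher, against 9% of all annotated loci. They were spr and pts, both enzymes of tetrahydrobiopterin, a cofactor that monoamine synthesis needs. spr had 24.7, 35.1, 36.2 and 27.1 CPM in PC, against 1.44, 5.93, 0.547 and 11.2 CPM in MC (3.23 ± 0.75, adjusted p = 0.0272; 2.84 span-scaled), and pts had 27.4, 40.8, 62.5 and 57.8 CPM in PC, against 2.23, 14.6, 3.55 and 20.4 CPM in MC (2.64 ± 0.59, adjusted p = 0.0234; 1.61 span-scaled, adjusted p = 0.067). Both calls rested on the low values of MC, and without MC fish 9 their adjusted p were 0.0765 and 0.0523. Of 10 clock genes 2 were lower, against 1.74% of all annotated loci. They were the nuclear receptors rora (-1.12 ± 0.26, adjusted p = 0.0274) and rorb (-0.92 ± 0.23, adjusted p = 0.0345). Span-scaled rora was not called (-0.77, adjusted p = 0.0796), while rorb was (-1.29). rorb lost its call without any 1 fish (0.0879 to 0.203), and rora without PC fish 12, MC fish 10 or MC fish 21 (0.0698, 0.139 and 0.0804).

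Of 25 chaperones 3 (12%, against 9% of all annotated loci called higher) were called, a share near the background. They were higher and were subunits of the cytosolic chaperonin: cct4, cct6a and cct8, by 1.18, 0.87 and 0.87. Scaled by span they were at 0.51, 0.27 and 0.38 and none of the 25 was called, and cct4 and cct6a overlap other annotated loci. cct4 lost its call without PC fish 23 or MC fish 9 (0.0721 and 0.0688), cct6a without PC fish 11, 23 or 24 or MC fish 9, 10 or 21 (0.0511 to 0.157), and cct8 without PC fish 11, 23 or 24 or MC fish 10 or 21 (0.0657 to 0.141). Of 25 genes of proliferation and neurogenesis 3 (12%, likewise near the background) were called, id1, id2 and dut, higher by 1.29, 1.34 and 1.39. None remained so span-scaled (-0.12, 0.28 and 0.31), where sox2 was the 1 member called, lower. Single calls were made among 7 antigen presentation genes (14.3%, against 1.74% of all annotated loci called lower) and 44 patterning genes (2.27%, against 9% called higher). They were pdia3, an endoplasmic reticulum oxidoreductase (lower, -1.21 ± 0.24, adjusted p = 0.0128), and gsx1, a forebrain transcription factor (higher, 2.33 ± 0.56, adjusted p = 0.0319). Span-scaled, pdia3 was at -1.46 and called, and gsx1 was at 0.88 and not called (adjusted p = 0.377), while 1 further antigen presentation gene, cd74, and 2 patterning genes, among them zic2, were called lower. pdia3 lost its call without PC fish 12 or MC fish 9 (0.057 and 0.0642), and gsx1 without PC fish 23, MC fish 10 or MC fish 22 (up to 0.0722). Of 4 complement and acute phase genes 1 (25%, against 9% of all annotated loci called higher) was called. It was c6, a component of the membrane attack complex, which was higher (1.00 ± 0.26, adjusted p = 0.0421, and 1.13 span-scaled). The c6 call ended without PC fish 11, 12, 23 or 24 or MC fish 9, 10 or 21 (0.0684 to 0.169). Of 24 lipid genes the 1 called (4.17%, against 9% of all annotated loci called higher) was fabp7.

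In 12 lists no member was called with the usual scaling. They held immediate early genes (18 tested), the stress axis (11), steroid receptors and synthesis (7), social peptide and hormone receptors (5), glutamate neurons (7), endothelial cells (13), fibroblasts and meninges (14), ependymal cells (18), interferon genes (10) and the pituitary, photoreceptor and red blood cell markers. Of their 118 tested members, 16 had an unadjusted p under 0.05, DESeq2 called 12 and limma-voom called 5. Over all 16911 annotated loci DESeq2 called 3543 and limma-voom 2736, among them 1814 and 1803 of the 1817 edgeR calls. The 12 lists were chosen for having no edgeR call, so smaller shares of calls by these tools were largely set by that choice. The span-scaled fit called jun, an immediate early gene, lower (-0.99, adjusted p = 0.0488), as well as cldn5, an endothelial junction protein (-1.85, adjusted p = 0.00337), and foxc1, a transcription factor of the meninges (-1.88, adjusted p = 0.0351). An adjusted p above the threshold does not show that the species were alike.

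A further group of genes had counts in 1 species only. Over all annotated loci 9% were called higher in PC and 1.74% lower. Of annotated loci tested, 265 had no count in any MC input, of which 57 were called, and 68 had none in any PC input, of which 5 were called. Each had passed the filter through the species in which it was counted. The PC libraries were deeper, and with all 8 thinned to the total of the shallowest the numbers were 261 with 59 called and 68 with 7 called. A fold change against a species with no counts was taken as a bound, by putting 3 counts over the 4 libraries in its place. Such a bound holds for the pooled counts of a species and takes no account of the spread between its fish. The most abundant was LOC101469063, a locus with no gene name in the files, with 265, 218, 348 and 296 CPM in PC, against 0, 0, 0 and 0 CPM in MC and 16894 counts in PC in all. It was at least 12.10 higher on the log2 scale in PC (adjusted p = 0.00016), and it was also called in the immunoprecipitated libraries.

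Of named genes, rmnd1, a mitochondrial translation factor in mammals, had 39, 39, 117 and 15 counts in PC and none in MC, which puts it at least 5.77 higher on the log2 scale (adjusted p = 0.0308). ccdc113, a cilia protein, had 8, 33, 104 and 29 counts in PC (at least 5.49 higher, adjusted p = 0.0392). spata5l1 had 50, 110, 2 and 19 counts in PC (at least 5.55 higher over the pooled counts, adjusted p = 0.0479). With 2 counts, PC fish 23 could not be told from the MC fish with none. Each of these calls ended without some single fish: that of rmnd1 without PC fish 23 (adjusted p = 0.101), that of ccdc113 without PC fish 23, MC fish 9 or MC fish 10 (up to 0.163) and that of spata5l1 without PC fish 12, PC fish 24, MC fish 9 or MC fish 10 (up to 0.15). Span-scaled ccdc113 and spata5l1 had adjusted p of 0.0502 and 0.0536. rmnd1 overlaps another annotated locus.

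Among peptides, rln3, a relaxin, and spx, spexin, had counts in PC alone but missed the threshold (adjusted p = 0.0504 and 0.06), and rln3 overlaps another annotated locus. In the other direction tg, thyroglobulin, the precursor of thyroid hormone, had none in PC and 127, 51, 59 and 34 counts in MC inputs, so that it was at least 6.86 lower on the log2 scale in PC (adjusted p = 0.00758). In a fish that protein is made in thyroid follicles, which lie outside the brain. In the immunoprecipitated libraries tg had 299 counts in MC fish 22 and none in the other 7.

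The species difference ran the same way in both batches and both conditions. Taking mean log2 CPM within batch a, within batch b, within mirror fish or within control fish, each with 2 fish per species, all 1522 higher loci were above 0 and all 295 lower loci were below 0. Over all annotated loci 63.2, 60.4, 63.3 and 59.8% were above 0 in these subsets. The same fish had made the calls, so these counts describe them and are no separate test. The size of the difference was not always alike. Over all annotated loci its median was 0.46 between mirror fish and 0.22 between control fish. For psmd8 it was 6.76 and 3.03, while gnrh1 went the other way, with 2.45 and 3.95. Fitted alone, batch a called 345 loci, batch b 3, mirror fish 0 and control fish 3, with 2 fish per species each.

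Whether the difference depended on the mirror was asked with an interaction term. edgeR called 0 annotated loci (0%), with 1013 at an unadjusted p under 0.05, limma-voom called 0 and DESeq2 called 111. With no low-count filter edgeR called 194. Leaving out 1 fish left 1 fish in a group of species and condition, so the filter then kept more loci. The interaction thus depended on the tool and on the filter, and any part of single fish could not be told apart from that of the filter.

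Immunoprecipitated RNA of the same fish, bound by ribosomes with phosphorylated S6, gave a second reading of them. Of 7396 annotated loci tested there, 32 (0.433%) were called, 27 (0.365%) higher and 5 (0.0676%) lower, with 472 at an unadjusted p under 0.05 and 667 called by DESeq2. Without PC fish 23 edgeR called 0, and without PC fish 24 it called 4. All 21 loci called in both kinds of library were higher in PC in both. Calls of each kind were mostly higher, so a shared direction says little by itself. Among the 21 were CYTB, ND2, pfdn1, a subunit of the prefoldin chaperone, lin52, a subunit of the DREAM complex of the cell cycle, and srgn, a proteoglycan of secretory granules. Span-scaled, the input calls ended for srgn (adjusted p = 0.0631) and lg7h18orf32 (-0.40, 0.157). They also ended for loci with only an identifier: LOC112434605 (0.0557), LOC112432334 (0.0551), LOC112429977 (0.16), LOC101473525 (0.0941) and LOC101469849 (0.0655).

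Of 1306 loci called higher in input and tested in the immunoprecipitate, 1166 (89.3%) had a fold change above 0 there, against 66.9% of all 7344 loci tested in both. Of 209 called lower, 99 were below 0 and 110 (52.6%) above 0, against the same 66.9% above 0 of all 7344. The input and the immunoprecipitate of a fish come from 1 lysate. Their medians differ too, since the median fold change of the 7344 loci in the immunoprecipitate was 1.69.

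The threshold fell within a continuum. Just inside it stood retreg2 (log2 fold change -0.84, adjusted p = 0.0498) and sema4d (-1.76, 0.04997), and just outside capn10 (0.80, 0.0501) and lix1l (-1.11, 0.0501).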

How the data were processed

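The authors deposited raw counts per assembled locus for 16 libraries, 1 input and 1 immunoprecipitated library from each of 8 fish, with the annotated gene that each locus matches per the file headers. The submitters' processing notes name cutadapt, HISAT2, StringTie and DESeq2; versions, settings, strandedness of counting and the genome and build that the reads were aligned to go unnamed in the sources used here. A count therefore depends on reads of both species aligning to a genome that is not named. The authors' 3 DESeq2 result tables were not used.

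Input counts were tested with edgeR 4.0.16 in R 4.3.3 (filterByExpr by species and condition, trimmed mean normalization, quasi-likelihood F test, terms for batch, condition and species). All 28742 loci that passed the filter entered the fit and the Benjamini-Hochberg adjustment, at a threshold of 0.05, and annotated loci are reported. CPM used the normalized library sizes, and means of log2 CPM used a prior count of 2. Depth was 10073251 to 23594320 counts per input. The filter keeps loci with about 10 counts in as many libraries as the smallest group holds, so a locus at 0 in 1 species passed through the other.

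The span-scaled fit added an offset per library, a loess curve (span 0.5) of the deviation in log2 CPM on log2 genomic span, fitted on nuclear annotated loci above 3 log2 CPM; mitochondrial loci had no curve. Library measures were compared by an exact permutation test over 70 splits. Alternatives were DESeq2 1.42.0, limma-voom (limma 3.58.1), other scalings, filters, covariates and thresholds, subsets, and leaving out each fish. With a fish left out, the filter followed the smaller group and kept 18138 to 18343 annotated loci, against 16911. The scripts were tested on simulated data.

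Named genes were the 15 highest and 15 lowest fold changes among called genes with a symbol, a mean above 1 log2 CPM and no overlap between the species, the 10 highest and 10 lowest above 6 log2 CPM, called members of the gene lists, and genes at 0 in 1 species. The members, the lists and this rule were chosen with earlier results of these data known. Genes called only when scaled by span were named after their values were seen. A few genes that meet the rule are not reported here. Gene lists were not tested as sets. Of 9300 distinct symbols 6823 were found among the symbols of a RefSeq table of the Mchenga conophoros genome, and none of the 19838 identifiers of the LOC form was.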

Additional observations from a re-analysis of the deposited data

Results flagged for a closer look

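Within a species, single fish stood apart from the other 3 for 8 of the called genes that the naming rule covers, by the ratio of the gap in log2 CPM to the range of the 4 values (above 0.829). In PC these were npc1 (0.953, fish 24 low), gpx4 (0.927, fish 24 high), nlgn3 (0.907, fish 12 high) and aif1l (0.863, fish 23 low). In MC they were syt10 (0.924, fish 22 low), unc13a (0.884, fish 21 high), pcsk1 (0.858, fish 21 low) and pnisr (0.842, fish 9 high). Chance alone gives such a ratio in about 1 of 20 groups. The genes that the rule covers were screened in both species, so a number of such ratios arises by chance alone. Ratios of this size in 8 genes are therefore no sign that a fish differed.

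At 3 loci the species difference was not the same in mirror and control fish (interaction term, edgeR, adjusted over all tested loci), and none of them has the class code of an annotated gene. The locus LOC112435433, which lies on the strand opposite to that gene, had 77.5, 71.6, 134 and 150.5 CPM in PC and 0, 19.8, 0.0911 and 15.8 CPM in MC (adjusted p = 0.0467). The unannotated locus MSTRG.42415 had 36.7, 45.05, 60.0 and 62.8 CPM in PC and 0, 35.7, 0 and 36.9 CPM in MC (adjusted p = 0.0155). At both, the MC control fish had counts and the MC mirror fish had 0 or 1. The unannotated locus MSTRG.50064 went the other way, with 946, 1029.7, 361 and 1326 CPM in PC and 405, 0, 744 and 0 CPM in MC (adjusted p = 0.0155). The fitted differences of the species effect, mirror minus control, were 8.36, 12.05 and -16.64 on the log2 scale. They depend on the prior count where counts are 0 and are not bounds.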

How the results depend on the processing

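The direction of the excess, more higher than lower calls in PC, held under every alternative that made calls, and its size did not. With 1817 calls (1522 higher, 295 lower) as reported, DESeq2 called 3543 (2615 and 928), limma-voom 2736 (565 lower) and an adjusted p under 0.1 gave 2753 (587 lower). Upper-quartile scaling gave 527 lower, the annotated loci alone 710 lower and counts summed per symbol 712 lower; higher calls were 69.9, 65.1 and 65.1% of all calls there, against 83.8%, and the median fold change of annotated loci was 0.16, 0.13 and 0.12, against 0.32. Span-scaled there were 789 higher and 547 lower, and among loci of at least 5000 bases 952 calls, 682 of them higher. Fitted by themselves, the batch a fish gave 345 (320 and 25), the batch b fish 3 (3 and 0), mirror fish alone 0 and control fish alone 3 (3 and 0), by construction with fewer fish. Without single fish there were 1265 to 2010 calls, 1139 to 1787 higher and 116 to 268 lower; the lower count moved most without MC fish 10 (116), MC fish 9 (126) and PC fish 12 (141), and was 185, 187 and 192 without PC fish 23, MC fish 21 and MC fish 22.

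Input and immunoprecipitate of a fish share that fish, so its number pairs them. Modelling all 16 libraries with the fish as a replicate block in limma-voom called 117 loci (100 higher, 17 lower), and all 16 libraries in edgeR called 0; PC and MC fish share no number, and a block of the fish of 1 batch and condition gave 1667. The interaction went from 0 calls to 111 with DESeq2, 194 with no low-count filter and 42 to 471 without single fish. The 32 calls in the immunoprecipitate became 667 with DESeq2, 49 with relative log expression scaling and 0 to 37 without single fish (0 without PC fish 23, 4 without PC fish 24, 16 without MC fish 22 and 21 without PC fish 11). Among lists, span scaling moved the medians of ribosomal proteins (0.83) to 0.025, adhesion genes (-0.43) to -0.20 and the respiratory chain (1.72) to 0.95; without single fish they were 0.71 to 0.95, -0.46 to -0.27 and 1.57 to 1.96. The genes id1, mgst3 and atp5f1e turned to -0.12, -0.18 and -0.052 span-scaled, none of them called there. Except where given, the cause was not tested.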
